A study of Mus musculus with 10 samples.

Results

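The nuclear genes for the subunits of mitochondrial respiratory complexes I, III, IV and V were followed across embryonic stem cells (ESCs), in vitro derived primordial germ cells (iPGCs) and somatic cells. The genes were taken by name (Nduf subunits of complex I, Uqcr of complex III, Cox4 to Cox8 of complex IV and Atp5 of complex V, without Ndufa4l2) from the probe sets that carry a single gene symbol in the platform annotation. This gave 76 genes with 154 probe sets, of 18193 genes and 34945 probe sets on the array. After probe sets of low signal were left out, 72 of the 76 genes were tested, which were 33 of 34 for complex I, 8 of 8 for complex III, 14 of 17 for complex IV and 17 of 17 for complex V, among 12207 genes in all. Cox7b2, Cox8b, Cox8c and the single probe set of Ndufb4 stayed at signals of at most 70.4 on every array and were not tested.

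RNA from sorted cells was hybridised to Affymetrix Mouse Genome arrays, with 2 arrays for each of 5 groups. The ESC group was V6.5 (129xBL6 F1), kept undifferentiated on feeders of mouse embryonic fibroblasts and sorted as SSEA1+/cKit+. Embryoid bodies were grown from V6.5 and from an Oct4-Gfp line of mixed background in hanging drops without leukemia inhibitory factor, for 6 days by the study's methods, while the labels give 3 to 6 days of growth for every sample. iPGCs were sorted from them as SSEA1+/cKitbright (V6.5) or Oct4-gfp+/cKitbright (Oct4-Gfp), and somatic cells as SSEA1-/cKit- (V6.5) or Oct4-gfp-/cKit- (Oct4-Gfp). No ESC arrays of the Oct4-Gfp line were in the set. A comparison of ESCs with both lines together therefore also compares genetic backgrounds and sort markers. The V6.5 counts of members are given beside it. Differences of single genes from ESCs are for both lines together unless V6.5 is named. Nothing in the labels says that the 2 arrays of a group came from separate cultures, so the p-values measure only the spread between these arrays.

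Oxidative phosphorylation passes electrons from NADH through complex I, ubiquinone, complex III, cytochrome c and complex IV to oxygen, and complex V uses the proton gradient built on the way to make ATP. Each complex is assembled from catalytic core subunits and many accessory subunits, and all but a few of these are encoded in the nucleus. Pluripotent stem cells are known for a strong glycolytic flux, and some complex IV subunits exist as a widely used form and a form restricted to tissues such as heart, skeletal muscle, lung or testis.

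The values are MAS5 signals on a linear scale, and differences were tested on the log2 of the signal plus an offset of 14.8 with limma over all probe sets, using the probe set with the highest mean signal for each gene. Signals of different probe sets are not comparable with each other, so each gene is compared only with itself between groups. A gene is called higher or lower at an adjusted p under 0.05. In sorted populations, fewer cells of one type and less RNA per cell cannot be told apart.

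The sorted populations carried the markers of their labels. The summed signal of 6 pluripotency genes lay between 33164 and 33459 in ESCs, between 25765 and 30551 in iPGCs and between 830 and 1388 in somatic cells. The summed signal of 7 PGC genes was 20264 to 20897 in iPGCs, against 10615 to 11365 in ESCs and 1487 to 2278 in somatic cells. Somatic cells had the highest summed signals of cardiac muscle genes (4425 to 7099, against 1226 to 1401 in ESCs and 513 to 784 in iPGCs), of fibroblast genes (21635 to 25949, against 5914 to 5928 and 2152 to 3561) and of erythroid genes (2514 to 19046, against 84.9 to 108 and 84.8 to 107). A sum gives most weight to the brightest probe sets, and not every gene of these lists was higher. Against ESCs, 6 of 9 cardiac muscle genes were called higher in somatic cells and 2 lower. For fibroblast genes these were 5 and 2 of 8, and for erythroid genes 5 and 0 of 5, beside 32.6% and 34.7% of all genes. The part of these cell types in the subunit values was not tested. The ratio of the 3′ to the 5′ control signal of Gapdh, a measure of RNA integrity and amplification length, was 1.30 and 1.28 on the ESC arrays, 1.51 to 2.37 on the iPGC arrays and 1.65 to 2.05 on the somatic arrays. This ratio therefore moved with the groups.

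Subunit transcripts of all 4 complexes were lower in iPGCs than in ESCs. Of 72 genes tested, 49 were called lower and 0 higher, and the median log2 difference was -0.47. Over all 12207 genes 21% were called lower and 24.5% higher, with a median of 0.04. Another 1623 genes, called other genes of high signal here, had a mean signal at or above the members' lower quartile of 2817. Of these 341 were lower and 303 higher, with a median of -0.02, and members under that quartile have no counterpart among them. The counts were 23 of 33 for complex I (median -0.42), 6 of 8 for complex III (median -0.57), 8 of 14 for complex IV (median -0.47) and 12 of 17 for complex V (median -0.51). In 57 of 72 genes all 4 iPGC arrays lay under both ESC arrays, as did 28.1% of all genes. Within V6.5, 26 of 72 were lower and 0 higher (median -0.41), against 12.9% and 17.3% of all genes. These were 16 of 33 for complex I (median -0.41) and 4 of 8 for complex III (median -0.42). For complex IV they were 3 of 14 (median -0.33) and for complex V 3 of 17 (median -0.45). Without the second ESC array 21 genes stayed under the threshold, and with the Gapdh ratio as a covariate, a fit added after seeing the data, 1 did, at a median of -0.56. In that fit the calls over all genes also fell, to 157 lower and 146 higher. Quantile normalization left 31, and a fit to the V6.5 arrays alone left 17. For the V6.5 contrast, 3 calls were left without either ESC array, 5 without the first V6.5 iPGC array, 13 without either V6.5 somatic array and 17 without either Oct4-Gfp iPGC array. The part of the Gapdh ratio in the difference was not tested beyond this covariate.

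In somatic cells 59 of 72 genes were called lower than in ESCs and 0 higher (median -0.67), while 34.7% of all genes were lower and 32.6% higher (median -0.02). Among the 1623 other genes of high signal 663 were lower and 333 higher, and their median was also lower in somatic cells, at -0.18 against -0.02 in iPGCs. All 8 genes of complex III were lower (median -0.75), 27 of 33 of complex I (median -0.69), 10 of 14 of complex IV (median -0.64) and 14 of 17 of complex V (median -0.59). All 4 somatic arrays lay under both ESC arrays in 67 genes, as did 39.5% of all genes. Within V6.5 the counts were 52 lower and 0 higher (median -0.59), against 31.8% and 30.3% of all genes. With the Gapdh ratio as a covariate 35 genes stayed lower, at a median of -0.69. The calls over all genes in that fit, and in the V6.5 alternatives that follow, are not given here. In V6.5 alone 34 were left without the second ESC array or without the first somatic array, and 29 with the covariate. Both comparisons share the ESC arrays, and 47 genes were called lower in both and 11 in neither. The same joint counts were not made over all genes, so no share stands beside them.

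**Figure D1:**
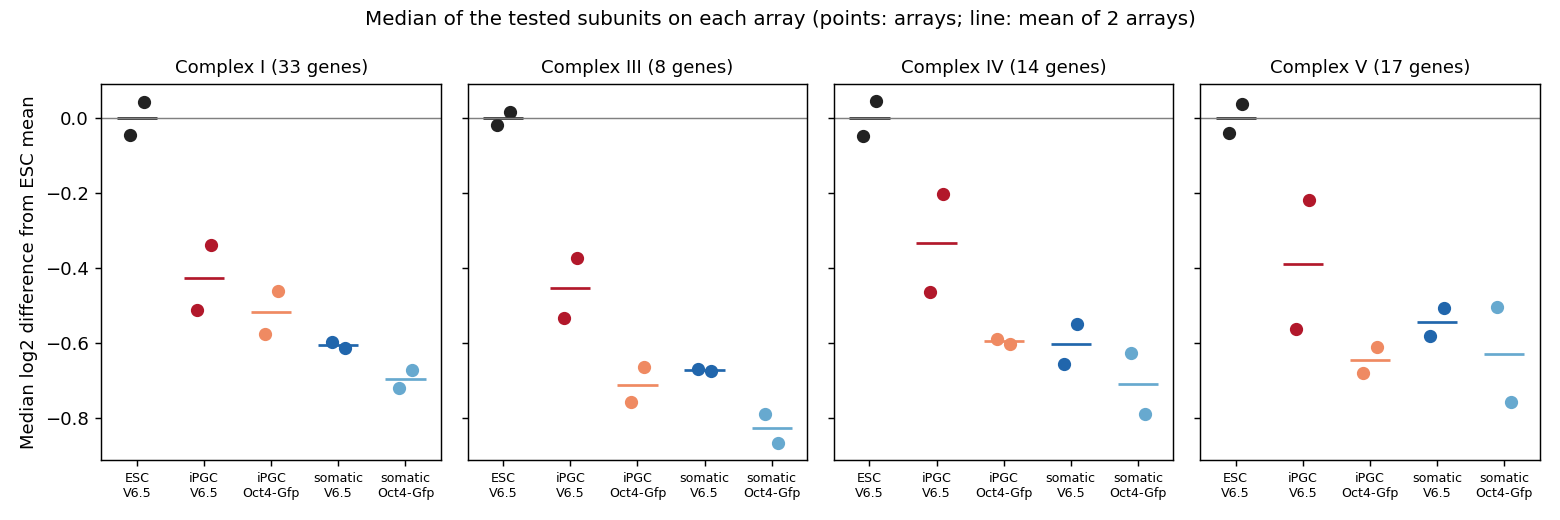
Median log2 difference of the tested subunits from the ESC mean on each of the 10 arrays, in a panel for each complex, with a line at the mean of the 2 arrays of a group. Every iPGC and somatic array lies below both ESC arrays in all 4 panels, and over all 72 genes the medians ran from -0.26 on the second V6.5 iPGC array to -0.75 on the second Oct4-Gfp somatic array.

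On single arrays, the median over the 72 genes was -0.51 and -0.26 for the V6.5 iPGCs, -0.66 and -0.56 for the Oct4-Gfp iPGCs, -0.60 and -0.56 in V6.5 somatic cells and -0.71 and -0.75 in Oct4-Gfp somatic cells, relative to the ESC mean. The second V6.5 iPGC array was the nearest to the ESC arrays, which stood at -0.04 and 0.04. The iPGC and somatic ranges overlapped.

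**Figure D2:**
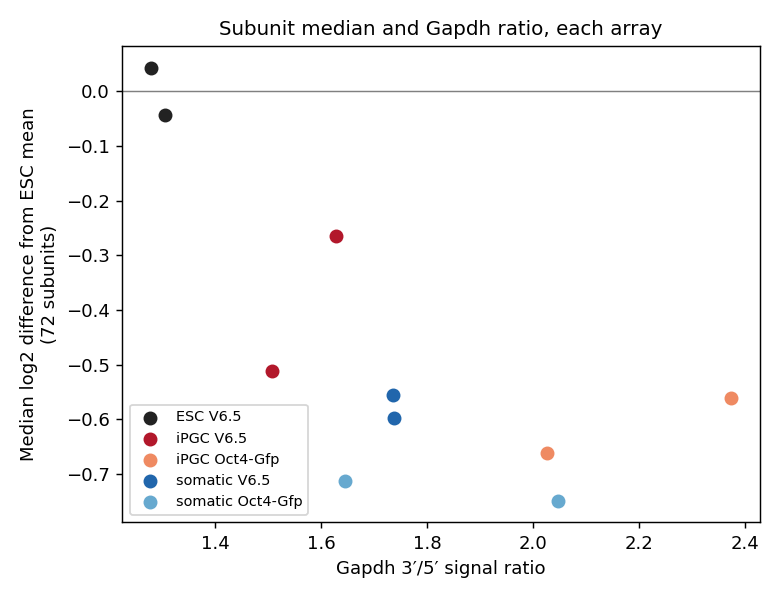
Median log2 difference of the 72 subunits from the ESC mean (vertical axis) against the Gapdh 3′/5′ signal ratio (horizontal axis), 1 point for each array. The ESC arrays have the lowest ratios, 1.30 and 1.28, and the highest medians, while the highest ratio, 2.37 on an Oct4-Gfp iPGC array, goes with a median of -0.56.

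In complex I, which takes electrons from NADH, the core subunits described here other than Ndufs1 were called lower in somatic cells than in ESCs. Ndufs3, a core subunit of the arm that leads electrons to ubiquinone, read 5587 and 5935 in ESCs, 3232, 3380, 2945 and 3340 in iPGCs and 3077, 3286, 3496 and 3312 in the somatic group. Both ESC arrays were above all others, and the log2 difference was -0.84 ± 0.11 (SE, limma adjusted p = 0.00117) for iPGCs and -0.81 ± 0.11 (adjusted p = 0.000417) for somatic cells. Ndufs7, which carries the iron-sulfur cluster next to the ubiquinone site, fell by 0.95 ± 0.13 (adjusted p = 0.00116) and by 1.00 ± 0.13 (adjusted p = 0.000253) on the log2 scale.

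Ndufs1, the largest iron-sulfur subunit, read 2911 and 2462 in ESCs, 2782, 2487, 3171 and 3163 in iPGCs and 2170, 2036, 1877 and 2701 in the somatic group. The iPGC and ESC arrays overlapped (log2 difference 0.11 ± 0.16, adjusted p = 0.625), and iPGCs were higher than somatic cells by 0.41 ± 0.13 (adjusted p = 0.0305), a call that was lost without any one of 6 of the 10 arrays (adjusted p up to 0.0861). Ndufv1, which binds NADH and flavin, was lower in somatic cells than in ESCs (-0.71 ± 0.11, adjusted p = 0.000732) and in iPGCs (-0.38 ± 0.11, adjusted p = 0.0241, lost without 3 of the 10 arrays in turn, adjusted p up to 0.14). Ndufs8, another iron-sulfur subunit, was lower in somatic cells than in ESCs (-0.87 ± 0.15, adjusted p = 0.00128) and higher in iPGCs than in somatic cells (0.63 ± 0.12, adjusted p = 0.00244).

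The accessory subunit Ndufa7 had one of the largest falls of complex I, at 6940 and 7649 in ESCs, 4009 and 5103 in V6.5 iPGCs, 2434 and 2384 in those of Oct4-Gfp and 2882, 3028, 2393 and 1937 in somatic cells. Its signal was 2.20-fold lower in iPGCs (log2 difference -1.14 ± 0.14, adjusted p = 0.000966) and 2.88-fold lower in somatic cells (-1.53 ± 0.14, adjusted p = 5.62e-05). The 2 V6.5 iPGC arrays lay between the ESC arrays and the other 6. Ndufb1, an accessory subunit of the membrane arm read by a dim probe set, gave 127 and 114 in ESCs, 41.8, 72.5, 38.8 and 33.2 in iPGCs and 84.6, 86.5, 63.6 and 48.1 in the somatic group. It fell by 1.18 ± 0.19 in iPGCs (adjusted p = 0.00232) and by 0.69 ± 0.19 in somatic cells (adjusted p = 0.0124, lost without the first ESC array, adjusted p = 0.0824). Its iPGC level was also under the somatic level (-0.49 ± 0.15, adjusted p = 0.0241, lost without any one of 5 arrays, adjusted p up to 0.0788).

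In complex III, which passes electrons from ubiquinol to cytochrome c, Uqcr11 and Uqcrq had the largest falls of the 8 genes tested. Uqcr11 read 3902 and 3974 in ESCs, 1601 and 2555 in V6.5 iPGCs, 820 and 1211 in those of Oct4-Gfp and 1577, 1438, 1368 and 914 in somatic cells. All 8 differentiated arrays were below both ESC arrays, with 2.75-fold lower signal in iPGCs (-1.46 ± 0.25, adjusted p = 0.00307) and 3.01-fold lower signal in somatic cells (-1.59 ± 0.25, adjusted p = 0.000797). Uqcrq, the ubiquinone-binding small subunit, read 3731 and 3854 in ESCs, 1643 and 2523 in V6.5 iPGCs, 1009 and 1024 in those of Oct4-Gfp and 973, 1152, 1136 and 717 in somatic cells. It was 2.62-fold lower in iPGCs (-1.39 ± 0.22, adjusted p = 0.00251) and 3.84-fold lower in somatic cells (-1.94 ± 0.22, adjusted p = 0.000162). A second, dim probe set of Uqcrq went the other way, from 65.5 and 91.6 in ESCs to 123 to 160 in iPGCs (log2 difference 0.75, adjusted p = 0.0145) and 84.7 to 143 in somatic cells (0.49, adjusted p = 0.0469), so the direction for Uqcrq depends on the probe set.

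Uqcrc1, the larger core protein of complex III, was lower in iPGCs (-0.59 ± 0.11, adjusted p = 0.00435) and in somatic cells (-0.90 ± 0.11, adjusted p = 0.000217). Uqcrc2, its partner, differed by -0.38 ± 0.11 in iPGCs (adjusted p = 0.0296, lost without any one of 5 arrays, up to adjusted p = 0.133) and by -0.40 ± 0.11 in somatic cells (adjusted p = 0.0162, lost without either ESC array, up to adjusted p = 0.0863). Uqcrfs1, the Rieske iron-sulfur protein, read 3410 and 3085 in ESCs and 2765, 2457, 2928 and 3233 in iPGCs, which overlapped (-0.19 ± 0.13, adjusted p = 0.257). In somatic cells it was called lower by a small margin (-0.36 ± 0.13, adjusted p = 0.0385), and that call was lost without any one of 7 of the 10 arrays (adjusted p up to 0.21).

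In complex IV, which reduces oxygen, the subunits Cox4i1, Cox5a and Cox5b were all lower in somatic cells than in ESCs, with log2 differences of -0.67 ± 0.12 (adjusted p = 0.00145), -0.78 ± 0.14 (adjusted p = 0.0015) and -0.60 ± 0.13 (adjusted p = 0.00443). In iPGCs, Cox4i1 differed by -0.41 ± 0.12 (adjusted p = 0.0251, lost without any one of 5 arrays, up to adjusted p = 0.169) and Cox5b by -0.54 ± 0.13 (adjusted p = 0.0134, lost without either ESC array, up to adjusted p = 0.0972). Between V6.5 iPGCs and ESCs alone, neither Cox4i1 (adjusted p = 0.18) nor Cox5b (adjusted p = 0.0582) was called. Cox5a read 10812 and 10831 in ESCs, 8690, 10539, 7813 and 9761 in iPGCs and 6121, 6539, 6435 and 6165 in the somatic group. Its iPGC arrays lay between the other groups, not called different from ESCs (-0.24 ± 0.14, adjusted p = 0.188) and higher than somatic cells (0.53 ± 0.11, adjusted p = 0.00385).

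In complex V, the ATP synthase, Atp5a1 and Atp5b of the catalytic head gave log2 differences between -0.20 and -0.37. Atp5a1, the alpha subunit of the head, read 12025 and 13016 in ESCs, 10159, 11196, 10666 and 11505 in iPGCs and 10060, 10861, 10456 and 10860 in the somatic group. The ESC arrays were the highest, but neither difference passed the test (-0.20 ± 0.11, adjusted p = 0.179, and -0.25 ± 0.11, adjusted p = 0.087). Atp5b, the catalytic beta subunit, was not called in iPGCs (-0.23 ± 0.11, adjusted p = 0.12) and was called lower in somatic cells (-0.37 ± 0.11, adjusted p = 0.016), a call lost without either ESC array (adjusted p up to 0.11). Both are among 19 members above a signal of 10000 on an ESC array. Members with a mean signal at or above the members' median had a median difference of -0.41 for iPGCs and -0.51 for somatic cells, against -0.70 and -0.81 for the members under it, and the part of signal compression in this was not tested.

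Atp5g1 and Atp5g2 encode the same c-ring protein with different import sequences. Atp5g1 read 5593 and 5360 in ESCs, 3078 and 3997 in V6.5 iPGCs, 1917 and 2125 in those of Oct4-Gfp and 1483, 1830, 1767 and 1081 in somatic cells. The 3 cell types did not overlap, and Atp5g1 was 3.60-fold lower in somatic cells than in ESCs (-1.85 ± 0.21, adjusted p = 0.000154), 2.05-fold lower in iPGCs than in ESCs (-1.04 ± 0.21, adjusted p = 0.00656) and higher in iPGCs than in somatic cells (0.81 ± 0.17, adjusted p = 0.00422). Atp5g2 was 2.14-fold lower in iPGCs (-1.10 ± 0.21, adjusted p = 0.00453) and 2.34-fold lower in somatic cells (-1.22 ± 0.21, adjusted p = 0.00118). Atp5l, the g subunit of the membrane part, was 2.06-fold lower in iPGCs (-1.04 ± 0.21, adjusted p = 0.00587) and 2.97-fold lower in somatic cells (-1.57 ± 0.21, adjusted p = 0.000321). Between V6.5 iPGCs and ESCs alone, Atp5g1, Atp5g2 and Atp5l were not called. There the differences were -0.64 ± 0.25 (adjusted p = 0.0877), -0.62 ± 0.24 (adjusted p = 0.0884) and -0.74 ± 0.24 (adjusted p = 0.0544).

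**Figure D3:**
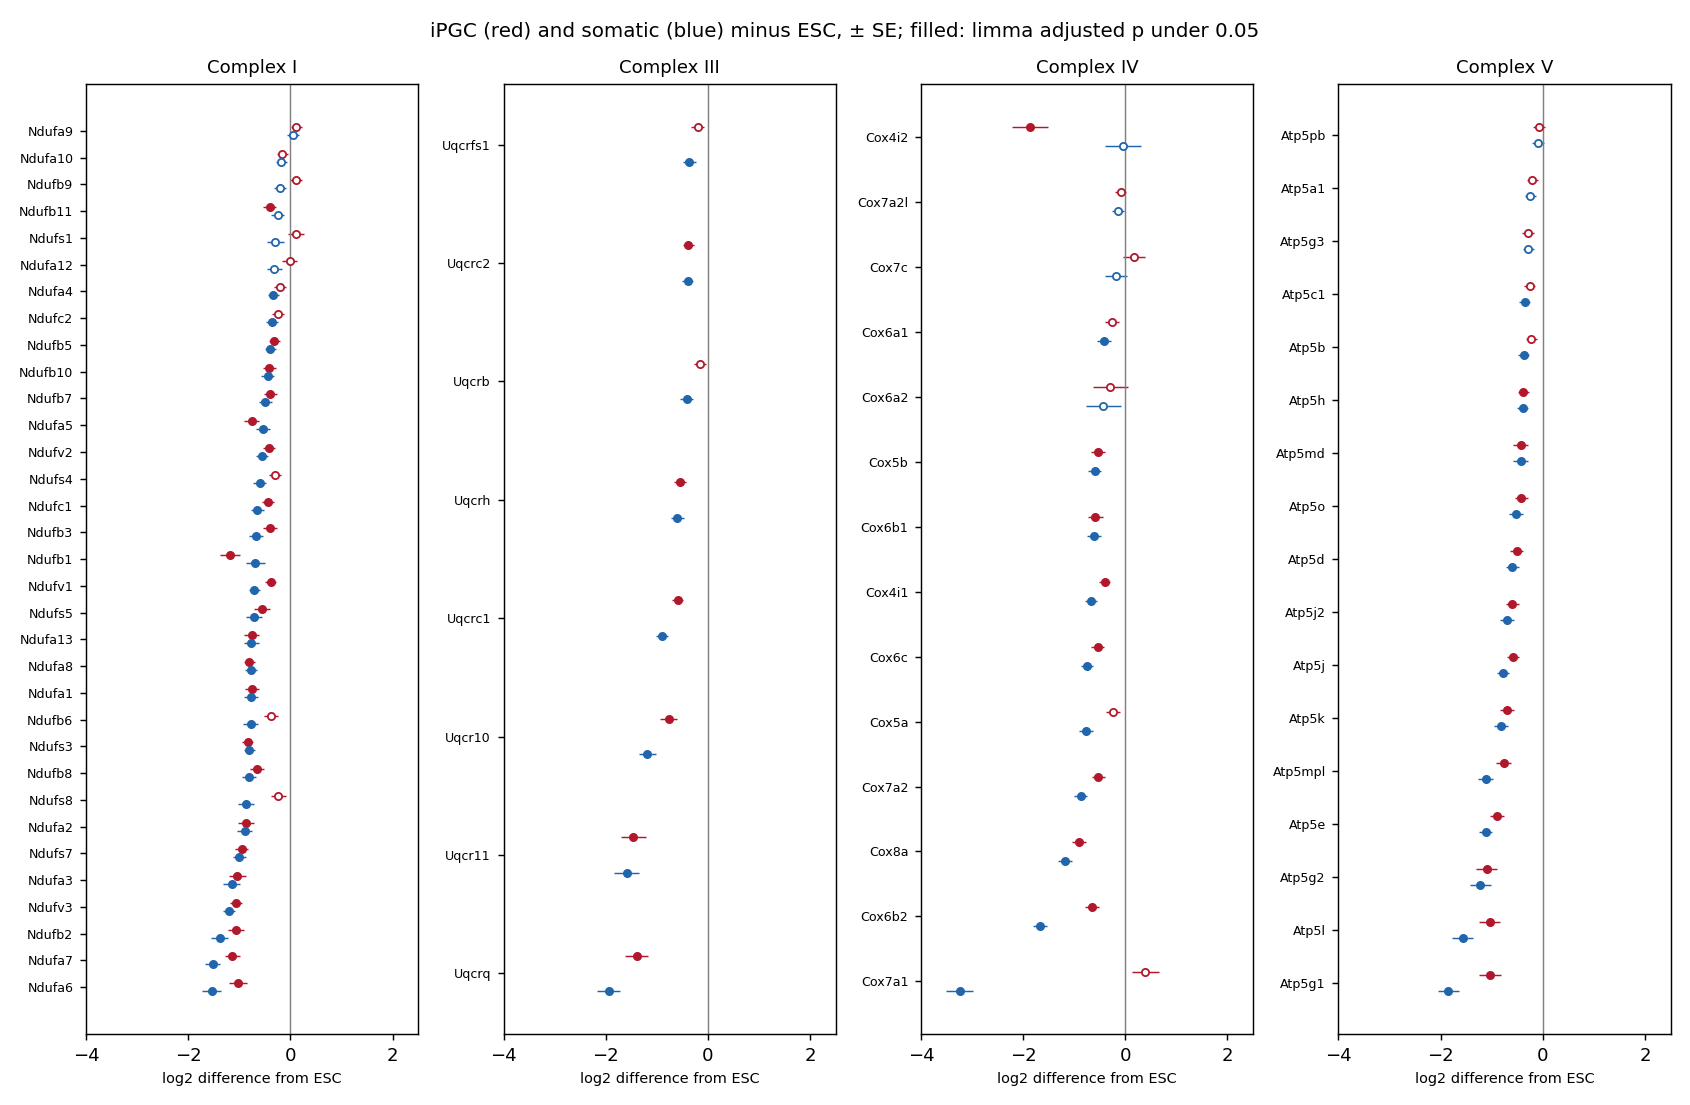
Log2 difference from ESCs (horizontal axis, ± SE) of each tested subunit in iPGCs (red) and somatic cells (blue), in a panel for each complex and ordered by the somatic difference, with filled points for an adjusted p under 0.05. No filled point lies to the right of 0, and Cox7a1 and Cox4i2 are the members whose 2 points lie furthest apart, the size for Cox4i2 being set in part by the offset.

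Some complex IV isoforms gave other patterns. Cox7a1, the form known from heart and skeletal muscle, read 1065 and 1129 in ESCs, 1457 and 2250 in V6.5 iPGCs, 1041 and 1263 in those of Oct4-Gfp and 69.1, 123, 139 and 93.1 in somatic cells. ESC and iPGC arrays overlapped (0.39 ± 0.26, adjusted p = 0.264), and every somatic array was far below them. Cox7a1 was 12.4-fold higher in iPGCs than in somatic cells (3.63 ± 0.21, adjusted p = 4.14e-06) and 9.44-fold lower in somatic cells than in ESCs (-3.24 ± 0.26, adjusted p = 2.53e-05). Its widely used counterpart Cox7a2 differed between somatic cells and ESCs by -0.88 ± 0.12 (adjusted p = 0.000454).

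Cox6b2, the testis form of a subunit that faces the intermembrane space, stepped down over the 3 cell types. It read 3955 and 4941 in ESCs, 3211, 2901, 2821 and 2383 in iPGCs and 1370, 1242, 1544 and 1388 in the somatic group, with no overlap between cell types. The iPGC level was 2.02-fold above the somatic level (1.02 ± 0.12, adjusted p = 0.000142) and 1.57-fold under the ESC level (-0.65 ± 0.14, adjusted p = 0.00866, lost without the second ESC array, adjusted p = 0.0894). The somatic level was 3.18-fold under the ESC level (-1.67 ± 0.14, adjusted p = 3.33e-05). Its counterpart Cox6b1 was not called between iPGCs and somatic cells (0.03 ± 0.11, adjusted p = 0.855). It was lower than in ESCs in both, with log2 differences of -0.58 ± 0.14 and -0.61 ± 0.14 (adjusted p = 0.0117 and 0.00519, the first lost without the second ESC array). Between V6.5 iPGCs and ESCs alone, Cox6b1 was not called (-0.44 ± 0.16, adjusted p = 0.0733).

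Cox4i2, the form known from lung that replaces Cox4i1 at low oxygen, was low everywhere and lowest in iPGCs. It read 128 and 92.9 in ESCs, 53.9, 14.0, 5.01 and 19.2 in iPGCs and 110, 101, 107 and 103 in the somatic group. The iPGC arrays were all under the others, and 2 of the 4 were within the background given by olfactory receptor probe sets, which lay between 12.6 and 25.4 on the 10 arrays. The log2 difference was -1.87 ± 0.35 from ESCs (adjusted p = 0.00442) and -1.82 ± 0.28 from somatic cells (adjusted p = 0.000799), and somatic cells were not called different from ESCs (-0.05 ± 0.35, adjusted p = 0.916). With iPGC arrays within background, the size of the first 2 depends on the offset: they were -1.48 and -1.44 with the offset doubled and -2.32 and -2.27 with a floor in its place.

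Cox6a2, the heart and muscle form beside Cox6a1, read between 40.9 and 122 on the 10 arrays and was called in no comparison. Cox6a1 was not called in iPGCs (-0.27 ± 0.13, adjusted p = 0.148) and was called lower in somatic cells (-0.41 ± 0.13, adjusted p = 0.0275, lost without any one of 4 arrays, up to adjusted p = 0.174). Cox8a, the widely used form beside the untested Cox8b and Cox8c, was lower in iPGCs (-0.90 ± 0.14, adjusted p = 0.00199) and in somatic cells (-1.18 ± 0.14, adjusted p = 0.000167).

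**Figure D4:**
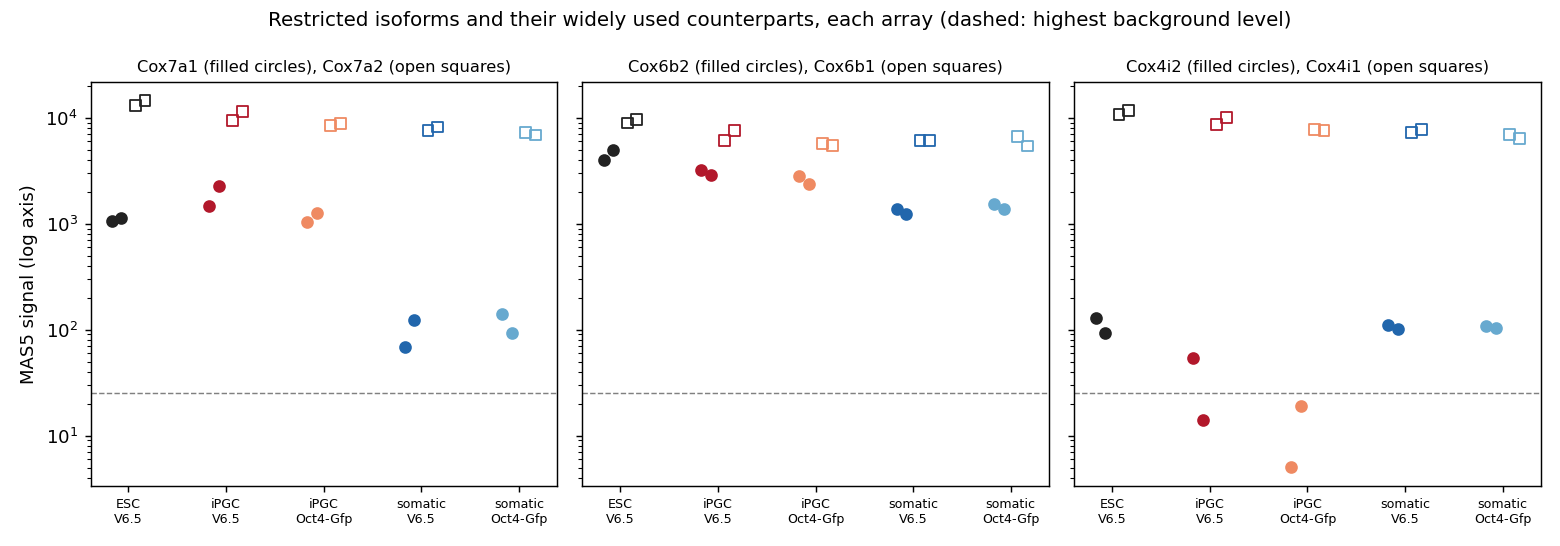
MAS5 signal on each array (logarithmic vertical axis) of Cox7a1, Cox6b2 and Cox4i2 (filled circles) and of the widely used forms Cox7a2, Cox6b1 and Cox4i1 (open squares), with the highest background level dashed. Circles are to be read against circles only: Cox7a1 drops in the 4 somatic arrays, Cox6b2 steps down from ESCs to iPGCs to somatic cells, and Cox4i2 is lowest in the 4 iPGC arrays.

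The proximal promoters of 4 members are shown because these genes differ in their pattern, Cox7a1 and Cox6b2 with a gap between iPGCs and somatic cells, and Uqcr11 and Atp5g2 with falls of like size in both. The sequences are from RefSeq, GRCm38.p6, from 250 bases before to 50 bases after the start of the gene on its own strand, at chr7:30183921-30184220 (plus strand), chr7:4753045-4753344 (minus), chr10:80406772-80407071 (minus) and chr15:102670998-102671297 (minus). Capitals mark a match, on either strand, to one of 4 letter patterns of factors known to act on respiratory genes, which are TGCGCANGC (NRF1), AANATGGCG (YY1), ACTTCCGG (ETS factors such as GABPA) and TCAAGGTCA (estrogen-related receptors).
Cox7a1: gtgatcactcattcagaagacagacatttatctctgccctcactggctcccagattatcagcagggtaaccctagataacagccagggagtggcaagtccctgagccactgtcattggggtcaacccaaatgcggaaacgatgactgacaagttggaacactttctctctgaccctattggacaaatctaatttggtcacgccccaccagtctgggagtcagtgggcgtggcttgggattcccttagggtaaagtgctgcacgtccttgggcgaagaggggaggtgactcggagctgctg
Cox6b2: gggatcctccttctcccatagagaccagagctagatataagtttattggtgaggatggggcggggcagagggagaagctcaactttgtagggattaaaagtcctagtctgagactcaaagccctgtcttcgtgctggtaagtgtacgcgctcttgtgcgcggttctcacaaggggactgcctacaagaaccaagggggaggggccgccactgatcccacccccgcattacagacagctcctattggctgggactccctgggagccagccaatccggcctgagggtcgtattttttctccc
Uqcr11: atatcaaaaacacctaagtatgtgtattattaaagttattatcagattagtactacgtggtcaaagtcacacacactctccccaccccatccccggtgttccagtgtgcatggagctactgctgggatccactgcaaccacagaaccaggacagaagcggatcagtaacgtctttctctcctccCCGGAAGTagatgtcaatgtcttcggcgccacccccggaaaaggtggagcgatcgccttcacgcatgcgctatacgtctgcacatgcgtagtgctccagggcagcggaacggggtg
Atp5g2: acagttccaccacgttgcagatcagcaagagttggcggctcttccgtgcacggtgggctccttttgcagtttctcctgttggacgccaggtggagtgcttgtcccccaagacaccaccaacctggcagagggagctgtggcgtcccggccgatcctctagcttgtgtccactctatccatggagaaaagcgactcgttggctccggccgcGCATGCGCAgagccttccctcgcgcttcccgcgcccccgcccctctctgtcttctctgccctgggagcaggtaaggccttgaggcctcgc
The Uqcr11 stretch holds 1 ETS pattern and the Atp5g2 stretch 1 NRF1 pattern, while the Cox7a1 and Cox6b2 stretches hold 0 of the 4. These genes were picked by their signals, and whether a letter pattern goes with a fall in signal was not tested. Of the 76 members 63 were matched to a promoter by gene identifier, and 23 of these (36.5%) held at least 1 of the patterns, against 10.4% of 27025 promoters of all genes. The shares were 15.9% and 4.33% for the NRF1 pattern, 11.1% and 2.51% for YY1, 7.94% and 4% for ETS and 1.59% and 0.407% for the estrogen-related receptor pattern. The NRF1 pattern can overlap its own reverse complement, and the patterns are a description of letters, not of binding.

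Between iPGCs and somatic cells the subunits differed less. Of 72 genes, 20 were higher in iPGCs and 2 lower (Cox4i2 and Ndufb1), with a median log2 difference of 0.13, against 33.7% and 29.8% of all genes with a median of 0.07. Among the 1623 other genes of high signal 33.3% were higher and 15.9% lower, and their median of 0.12 was close to that of the members. The higher genes were 8 of complex I, 4 of complex III, 5 of complex IV and 3 of complex V. The 6 with the largest differences were Cox7a1, Cox6b2, Atp5g1, Ndufs8, Uqcrq (0.55 ± 0.18, adjusted p = 0.0315, lost without any one of 5 arrays, up to adjusted p = 0.0972) and Cox5a. In 12 genes every iPGC array was above every somatic array, as in 29.5% of all genes. The count of 20 fell to 13 without the first and to 7 without the second Oct4-Gfp iPGC array, to 9 without the second V6.5 iPGC array, to 9 and 10 without the first or second V6.5 somatic array and to 13 without the second Oct4-Gfp somatic array. Median centring of the arrays, which raised the median over all genes from 0.07 to 0.25, gave 41, centring on other genes of high signal gave 7 higher and 3 lower, and quantile normalization 16 higher and 4 lower. Within V6.5 11 genes were higher and 1 lower (27.3% and 24.2% of all genes), and within Oct4-Gfp 4 were higher and 1 lower (25.7% and 24.8%). Without a V6.5 array the V6.5 count fell to 3 (second iPGC array), 2 or 5 (first or second somatic array), and without the second Oct4-Gfp iPGC array the Oct4-Gfp count fell to 2.

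The lines were not told apart by the test. They also differ in the marker sorted on (SSEA1 or Oct4-gfp), so line and sort marker cannot be told apart. Between Oct4-Gfp and V6.5 iPGCs 0 of 72 members passed, against 0% of all genes. An unadjusted limma p under 0.05 was found for 18 of 72 members and for 2440 of all 12207 genes. In the Oct4-Gfp line 62 members were lower (median -0.22), beside 6366 of all genes (median -0.02). The member nearest the threshold was Ndufa7, at -0.90 ± 0.17 (adjusted p = 0.0698). Between the somatic lines 0 passed, against 0.0819% of all genes. At an unadjusted p under 0.05 were 6 members (lowest adjusted p = 0.33) and 1445 of all 12207 genes. The contrast of iPGCs and somatic cells differed between lines in 0 members, against 0.00819% of all genes. Here 1 member (lowest adjusted p = 0.458) and 1119 of all 12207 genes had an unadjusted p under 0.05. With limma-trend, 10 members passed between the iPGC lines, against 3.55% of all genes. The Gapdh ratio was 1.51 and 1.63 for the V6.5 arrays of iPGCs and 2.02 and 2.37 for the Oct4-Gfp ones, and its part in the lower Oct4-Gfp values was not tested.

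Several tested probe sets were present for 42 members. All of a gene's probe sets were called lower in 20 genes in iPGCs and in 28 in somatic cells, relative to ESCs. Over the 138 tested probe sets, 91 were lower and 2 higher in iPGCs, and 113 lower and 2 higher in somatic cells. Such counts by probe set were not made for the other genes, so these have no share of all features beside them. In 31 of the 42 genes the second brightest probe set gave a more negative difference in iPGCs than the brightest, and in 33 in somatic cells. Ndufa7 gave log2 differences in iPGCs between -1.14 for its brightest probe set, which was used here, and -2.38 (adjusted p = 0.000238). Probe sets of opposite call were found in Uqcrq, described above, and in Ndufs4. The brightest probe set of Ndufs4, an accessory subunit needed for complex I assembly, was lower in somatic cells (-0.60 ± 0.12, adjusted p = 0.0028), and a dim one, at 72.7 and 104 in ESCs and 188 to 272 in somatic cells, was higher (1.27, adjusted p = 0.000538).

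Genes around the respiratory complexes did not all follow the subunits. Of 22 tested genes of complex II, the mobile electron carriers and ubiquinone synthesis, 4 were lower and 3 higher in iPGCs than in ESCs (median -0.14). In somatic cells 12 were lower and 3 higher (median -0.45). Of all genes, 21% were lower and 24.5% higher in iPGCs, and 34.7% and 32.6% in somatic cells. In V6.5 iPGCs 3 of the 22 were lower and 2 higher, beside 12.9% and 17.3% of all genes. Sdhb, the iron-sulfur subunit of succinate dehydrogenase, was lower in both (-0.98 ± 0.11, adjusted p = 0.000573, and -0.96 ± 0.11, adjusted p = 0.000133). Cyct, the testis form of cytochrome c, read 2726 and 2385 in ESCs, 3212, 3506, 2932 and 2890 in iPGCs and 142, 122, 139 and 298 in the somatic group. Its somatic arrays were far below all others (-3.84 ± 0.25 from ESCs, adjusted p = 9.03e-06), and iPGCs were not called different from ESCs (0.29 ± 0.25, adjusted p = 0.382). Coq8a, needed to make ubiquinone, went the other way and was higher in somatic cells than in ESCs (2.05 ± 0.18, adjusted p = 3.53e-05). Coq3, a methyltransferase of the same pathway, was lower in somatic cells (-1.87 ± 0.15, adjusted p = 2.13e-05).

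Assembly factors, which build the complexes without being part of them, were lower in iPGCs than in ESCs in 16 of 44 and higher in 2 (median -0.19), and in somatic cells lower in 29 and higher in 3 (median -0.58). Of all genes, 21% were lower and 24.5% higher in iPGCs, and 34.7% and 32.6% in somatic cells. In V6.5 iPGCs 8 of the 44 factors were lower and 2 higher, beside 12.9% and 17.3% of all genes. Between iPGCs and somatic cells 23 factors were higher and 4 lower (median 0.38), beside 33.7% and 29.8% of all genes. Ecsit, a complex I assembly factor, was lower in iPGCs (-1.31 ± 0.14, adjusted p = 0.000526) and somatic cells (-1.77 ± 0.14, adjusted p = 2.23e-05), as was Ndufaf8 (-1.02 ± 0.13, adjusted p = 0.000868, and -1.43 ± 0.13, adjusted p = 3.94e-05). Sco1, a copper chaperone of complex IV read at low signals of 32.3 and 55.8 in ESCs, was higher in both (1.28 ± 0.22, adjusted p = 0.00303, and 1.61 ± 0.22, adjusted p = 0.000356).

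Regulators of mitochondrial gene expression and biogenesis gave 7 higher and 1 lower of 21 in iPGCs against ESCs (median 0.28), beside 24.5% and 21% of all genes. Within V6.5, the only line with ESC arrays, they gave 1 higher and 1 lower (median 0.14), beside 17.3% and 12.9% of all genes. In iPGCs against somatic cells 12 were higher and 3 lower (median 0.42), beside 33.7% and 29.8% of all genes. Tfb1m, which modifies mitochondrial ribosomal RNA, was higher in iPGCs than in ESCs (0.50 ± 0.14, adjusted p = 0.0205) and than in somatic cells (1.27 ± 0.11, adjusted p = 3.31e-05). Polg, the mitochondrial DNA polymerase, was highest in somatic cells (2.01 ± 0.15 over ESCs, adjusted p = 1.6e-05). Esrrb, an estrogen-related receptor that is also a pluripotency factor, read 5974 and 5559 in ESCs, 3405 to 4125 in iPGCs and 22.2 to 59.1 in somatic cells. Ppargc1b, a coactivator of respiratory genes, was lower in iPGCs than in ESCs (-1.28 ± 0.31, adjusted p = 0.0135). Ppargc1a and Esrrg had no tested probe set, and the 13 protein genes of the mitochondrial genome were not analysed here.

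Ribosomal protein genes, given as a reference for other abundant housekeeping transcripts, were also mostly lower than in ESCs. Cytosolic ribosomal proteins were lower in iPGCs than in ESCs in 31 of 43 and higher in 2 (median -0.49). In somatic cells 40 of 43 were lower and 1 higher (median -0.60). Of all genes, 21% were lower and 24.5% higher in iPGCs, and 34.7% and 32.6% in somatic cells. In V6.5 iPGCs 11 of the 43 were lower and 1 higher (median -0.39), beside 12.9% and 17.3% of all genes. Mitochondrial ribosomal proteins were lower in iPGCs in 44 of 76 and higher in 5 (median -0.44), and in somatic cells lower in 65 and higher in 4 (median -0.78). In V6.5 iPGCs 27 of the 76 were lower and 2 higher (median -0.36). Between iPGCs and somatic cells 41 of 76 were higher and 2 lower (median 0.32), beside 33.7% and 29.8% of all genes.

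**Figure D5:**
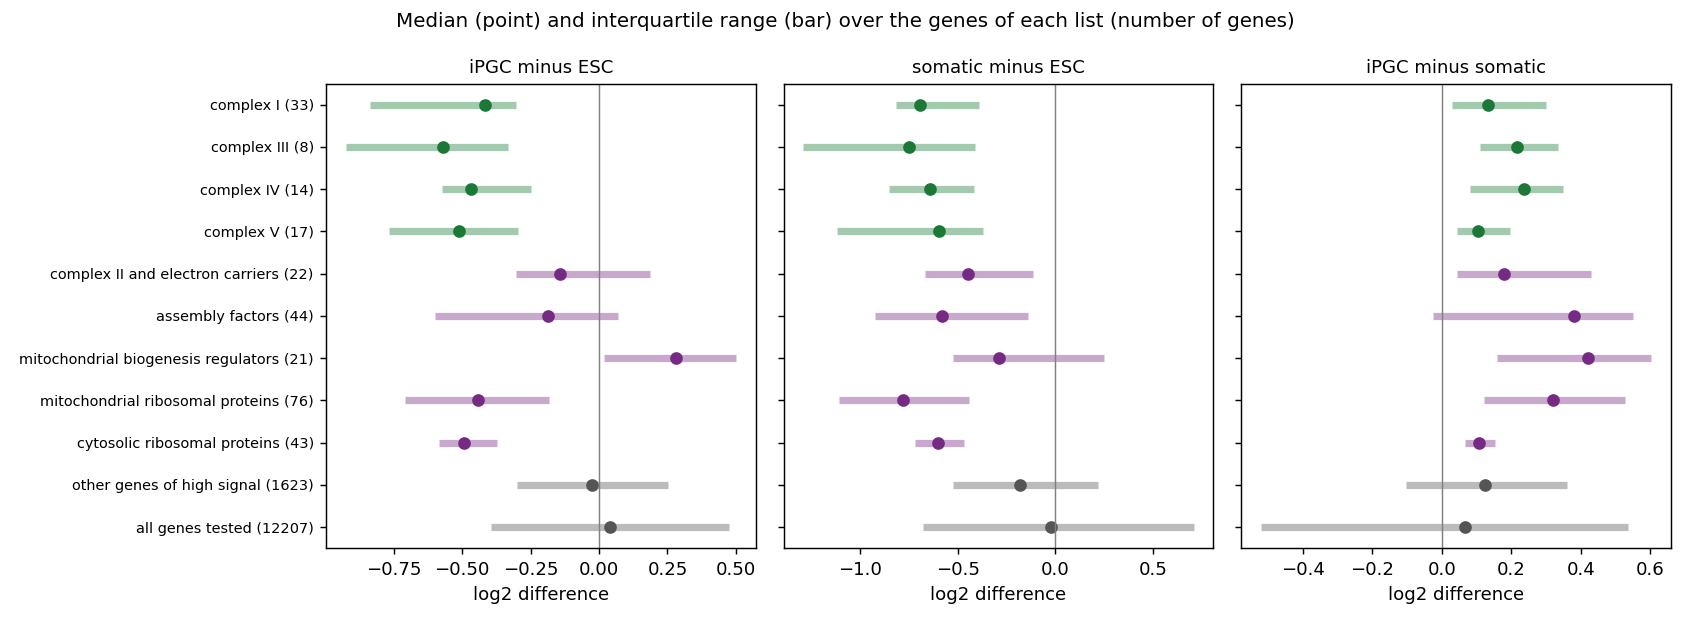
Median (point) and interquartile range (bar) of the log2 difference over the genes of each list, for iPGCs minus ESCs, somatic cells minus ESCs and iPGCs minus somatic cells, with the number of tested genes after each name and a separate horizontal scale in each panel. The 4 complexes and both ribosomal lists lie between -0.42 and -0.57 in the first panel, where all genes tested lie at 0.04 and the regulators of mitochondrial biogenesis at 0.28.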

How the data were processed

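Gene expression was measured on 10 Affymetrix Mouse Genome arrays, 2 for each of 5 sorted populations, after NuGEN Ovation Pico WTA amplification. The deposited values are signal intensities on a linear scale. The submitters' processing notes name MAS5, without a version, as the tool with which the authors made them, and their trimmed mean is 500 on every array. The paper's methods name D-Chip model-based expression, and such values were not used here. With 2 arrays in a group, the number of arrays limits the precision.

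Of 45101 probe sets, 64 control probe sets were left out, and a probe set was tested where 2 or more arrays had it above their median signal (26368 probe sets, 12207 genes). The log2 of the signal plus 14.8, the 25th percentile of the table, entered a 5-group linear model in limma 3.58.1 (R 4.3.3) with 5 residual and 2.92 prior degrees of freedom. The Benjamini-Hochberg adjustment was made over all tested probe sets, and genes were counted by their probe set of highest mean. Gene names came from the platform annotation. Background was the 95th percentile of 44 olfactory receptor probe sets on each array. Figures were drawn with matplotlib in Python.

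The members, the gene lists, the tests and the alternatives were chosen with earlier results of these data known. The text names the 6 largest called differences in each direction for each comparison of cell types, a fixed selection of core subunits, the tissue-restricted isoforms with their counterparts, and genes whose probe sets were called in opposite directions, and up to 4 genes of each other list. The fitting script was tested on simulated data. Scaling, filter, offset, probe set choice, model and each left-out array were varied, and 2 of the alternatives were added after seeing the data.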

Additional observations from a re-analysis of the deposited data

Results flagged for a closer look

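Among 68 checks of named members and complex medians over the 4 iPGC or the 4 somatic arrays, 1 array stood apart from the other 3 of its cell type, where chance flags about 1 group in 20. For Ndufs7 in somatic cells the second V6.5 array read 3054, while the others read between 2893 and 2919, a gap that is 0.84 of the whole range. All 4 stayed far below the ESC signals of 5526 and 6310. The step from somatic cells to iPGCs was not found to depend on the line for any member.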

How the results depend on the processing

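The comparisons of cell types were recomputed under 27 alternatives and those within or between lines under 25, of which the Gapdh covariate and the centring on other genes of high signal were chosen after seeing the data. With each array left out in turn, the members lower than in ESCs ranged from 21 to 52 in iPGCs and from 44 to 59 in somatic cells, and in V6.5 alone from 3 to 26 and from 34 to 54. The members higher in iPGCs than in somatic cells ranged from 7 to 24 (lower, 1 to 3), in V6.5 from 2 to 15 (lower, 0 to 1) and in Oct4-Gfp from 2 to 4 (lower, 1 to 2). A group left with 1 array was assumed to vary like the others. The counts of members in this section stand without the share of all genes under the same alternative.

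Relative to ESCs, the lower members numbered 1 (iPGCs), 35 (somatic cells), 6 (V6.5 iPGCs) and 29 (V6.5 somatic cells) with the Gapdh covariate, and 31 (iPGCs), 10 (V6.5 iPGCs) and 33 (V6.5 somatic cells) after quantile normalization. A fit to V6.5 arrays alone gave 17 in iPGCs. For V6.5 iPGCs the count was 49 with limma-trend, 10 with no filter, 3 with only the arrays compared, 17 with centring on other genes of high signal and 17 with the replicate block. Deviations of arrays with the same replicate number gave 10 correlations from -0.29 to 0.26, 2 above 0.1. These cannot show whether such arrays were paired, and the replicate block moved no other count by over 1.5 times. Without the probe sets marked as open to several transcripts (_s_at and _x_at), or with the second probe set of a gene, 1 member was higher than in ESCs in iPGCs, in V6.5 iPGCs and in somatic cells.

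Between iPGCs and somatic cells, 11 members were higher and 1 lower with lines pooled, 10 and 1 with V6.5 arrays alone, 41 and 1 with median centring, and 7 were higher with centring on other genes of high signal. The lower members numbered 4 with quantile normalization, 4 with the second probe set and 1 with the Gapdh covariate. Within V6.5 the higher members were 7 with that centring, 24 with limma-trend, 17 with the mean of a gene's probe sets, 22 with median centring and 7 with only the arrays compared. There the lower members were 0 with the Gapdh covariate, 0 with only the arrays compared and 2 with quantile normalization. Within Oct4-Gfp the higher members were 2 with the covariate, 2 with centring on genes of high signal, 12 with limma-trend, 27 with median centring and 2 with only the arrays compared. Between the iPGC lines 10 members passed with limma-trend. Median centring moved the median over all genes from -0.02 to -0.20 for somatic cells against ESCs, and centring on genes of high signal moved it to 0.11.

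Of 2349 values of named members under the alternatives, 198 lost and 25 gained the threshold. Another 7 turned: Uqcrq was 0.75 in iPGCs and 0.49 in somatic cells with its second probe set and without the marked probe sets, Ndufs4 was 0.23 for somatic cells minus ESCs and -0.094 for iPGCs minus somatic cells with the mean of its probe sets, and Atp5b was 0.067 for somatic cells minus ESCs after quantile normalization. The choice of probe set turned Uqcrq and Ndufs4, and for the others the cause was not tested. Signals near the olfactory receptor background, such as those of Cox4i2 in iPGCs, have no reliable order.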

Other observations

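Besides Ndufs1, Atp5a1 and Cox6a2, another 8 members were called in neither comparison with ESCs. They are named here after their values were seen. Ndufa9, an accessory subunit at the joint of the complex I arms, read 4264 and 4550 in ESCs, 4649 to 4999 in iPGCs and 4293 to 4842 in the somatic group, with log2 differences of 0.11 ± 0.11 (limma adjusted p = 0.444) and 0.05 ± 0.11 (adjusted p = 0.697) from ESCs. Atp5pb, the b subunit of the stalk that holds the ATP synthase head, gave -0.07 ± 0.12 (adjusted p = 0.681) and -0.09 ± 0.12 (adjusted p = 0.518). Cox7a2l, which takes part in joining complexes III and IV, gave -0.09 ± 0.11 (adjusted p = 0.545) and -0.15 ± 0.11 (adjusted p = 0.281). The others were Ndufa10, Ndufa12, Ndufb9, Cox7c and Atp5g3, the third c-ring gene, which gave -0.29 ± 0.12 (adjusted p = 0.0738) and -0.28 ± 0.12 (adjusted p = 0.0634) where Atp5g1 and Atp5g2 were called lower. A missed threshold does not show that these genes did not differ.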
